A study of Mus musculus with 8 samples.

Results

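Among the MYSM1-FLAG peak summits of mouse blood progenitor lines, 473 lay between genes at long stretches made only of purines on one strand (adenine and guanine) and only of pyrimidines on the other. They were 22.5% of the 2099 deposited summits (exact 95% Clopper-Pearson interval 20.8% to 24.4%). A summit was taken when it lay more than 1 kb from every annotated transcription start site (TSS), outside all annotated gene bodies, and had an unbroken run of at least 40 purines or 40 pyrimidines within 100 bp on each side. Summits of adjacent pairs 2000 to 3000 bp apart were left out, which removed 2 that otherwise met the rule. The rule used position and genome sequence and no measured level, so the presence of a run is not a finding.

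MYSM1 is a deubiquitinase that removes ubiquitin from histone H2A, a mark laid down by Polycomb complexes, and it is required for blood formation. Polypurine tracts are common in the mouse genome, where many are simple tandem repeats that grow and shrink as the polymerase slips. Such DNA can fold into triplex structures, and the GGAA core that recurs in many of these tracts is the core bound by ETS transcription factors, a family with many members in blood cells.

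Chromatin came from 2 mouse lines made to carry murine MYSM1 tagged with triple FLAG and selected with puromycin. Ba/F3 is a pro-B line grown on interleukin 3 from conditioned medium, and HPC7 is a multipotent blood progenitor line grown on stem cell factor. An anti-FLAG antibody was used, so the protein measured is the introduced, tagged one and not the endogenous one. For either line there was 1 library each of MYSM1-FLAG, H3K27ac, H2AK119ub and input. The data here are 1 list of summit positions on mm9 with no height, score or name of a line, so no summit can be given to one line or the other, and the identity of the lines cannot be checked against marker genes. There are no replicates, the read depth is not known, and no difference below was tested. Intervals of shares are exact 95% Clopper-Pearson intervals, and those of medians are 95% binomial intervals on the ordered values. Both cover counting error only.

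The windows reaching 100 bp to each side of 4 summits show some of the less common sequences involved. They are written 5′ to 3′ on the purine strand, from the mm9 genome, with the longest perfect tandem array of units of 1 to 12 bases in capitals. The first 3 show the longer units AAAGGAAG, AAGAAGG and AAAGGAAGGG, and the last is a member led by AAAG repeats. None has AAAGG as its longest array, although among these units AAAGG led the runs of 284 of the 473 members.
chr6:41987004-41987204, minus strand: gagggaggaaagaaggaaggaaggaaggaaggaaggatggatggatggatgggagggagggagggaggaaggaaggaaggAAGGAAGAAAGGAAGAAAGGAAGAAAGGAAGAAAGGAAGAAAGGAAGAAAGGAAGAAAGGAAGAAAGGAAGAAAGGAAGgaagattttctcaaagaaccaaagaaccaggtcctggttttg
chr1:164842750-164842950, plus strand: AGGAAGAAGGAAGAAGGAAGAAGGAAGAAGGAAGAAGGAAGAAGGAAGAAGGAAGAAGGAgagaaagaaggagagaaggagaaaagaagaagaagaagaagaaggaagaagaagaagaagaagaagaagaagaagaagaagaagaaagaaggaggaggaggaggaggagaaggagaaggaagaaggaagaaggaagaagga
chr15:41845421-41845621, minus strand: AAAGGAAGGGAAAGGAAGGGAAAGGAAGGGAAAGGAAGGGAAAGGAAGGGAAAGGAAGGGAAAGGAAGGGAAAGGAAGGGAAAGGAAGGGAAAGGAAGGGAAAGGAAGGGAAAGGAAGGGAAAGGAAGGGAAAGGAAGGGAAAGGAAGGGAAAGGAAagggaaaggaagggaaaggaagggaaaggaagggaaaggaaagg
chr7:7091030-7091230, minus strand: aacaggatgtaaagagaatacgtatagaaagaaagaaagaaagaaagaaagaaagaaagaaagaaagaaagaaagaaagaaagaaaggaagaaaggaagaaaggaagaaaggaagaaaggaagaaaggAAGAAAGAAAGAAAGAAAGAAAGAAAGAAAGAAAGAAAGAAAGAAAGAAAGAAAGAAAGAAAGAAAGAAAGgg

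Summits between genes mostly had either a long run in their window or none. Of 905 unpaired intergenic summits, 473 (52.3%) held a run of at least 40 bases, while 385 had none longer than 15. Among all tiles of intergenic mm9 sequence of the same length as the window, 1.92% held such a run (141142 of 7343001). Few summits lay near the limit of the rule: 8 had a longest run of 36 to 39 bases and 5 had one of 40 to 45. The shortest runs inside a window were 41, 41 and 42 bases, at summits on chromosome 5 at 57050907, on chromosome 5 at 140942424 and on chromosome 6 at 123909471. The longest runs outside the rule were 39, 39 and 38 bases, the second on chromosome 13 at 72981663 and the last on chromosome 1 at 127412699. The summit on chromosome 13 bordered a full run of 147 bases with an AAAGGAAG array.

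**Figure D1:**
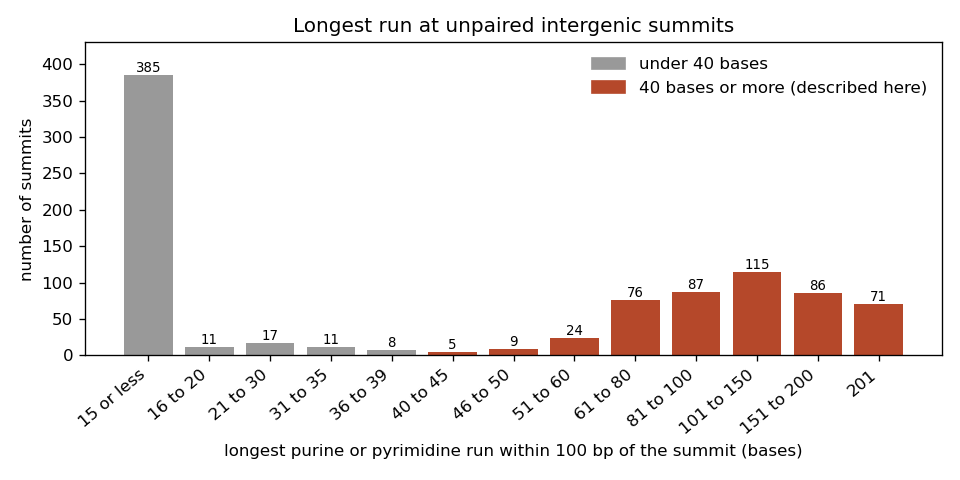
Number of unpaired intergenic summits (vertical axis) by the longest unbroken purine or pyrimidine run within 100 bp of the summit (horizontal axis, bases); red bars are the 473 summits described here. Most summits have either a run of 15 bases or less (385) or one of more than 60, and few lie near the limit of 40.

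The runs were long. Followed beyond the window to their ends, they had a median of 198 bases (quartiles 141 and 294, range 49 to 975, n = 473), and 91.8% reached 100 bases. Intergenic runs of at least 40 bases that had no summit had a median of 66 bases (n = 143836), and 25.6% reached 100. The members' runs held a median of 41.4% guanine (quartiles 38.1% and 46.2%), against 49.0% in the runs without a summit. Only 1 run of 40 bases lay in the window of 439 members, and in 71 the whole window lay inside 1 run. Purines were on the forward strand at 227 members and on the reverse strand at 246, with median run lengths of 198 and 200.5 bases.

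**Figure D2:**
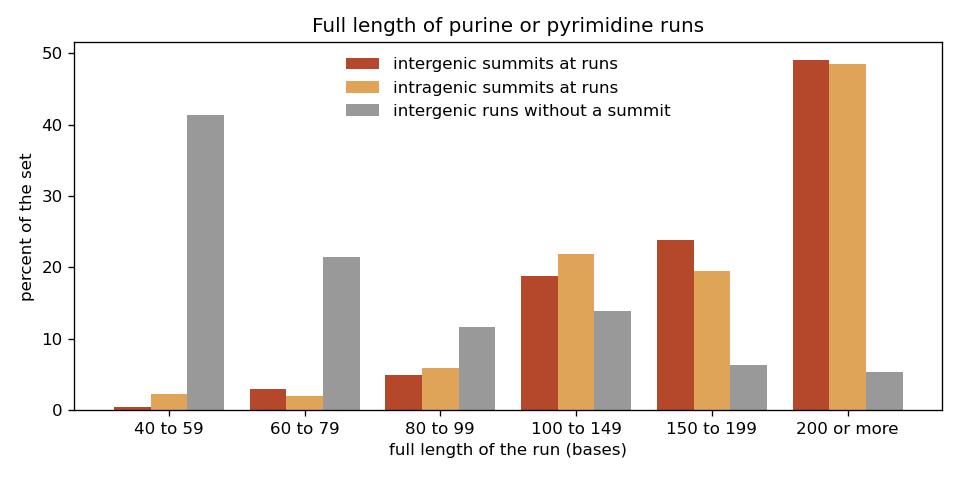
Percent of each set (vertical axis) by full run length in bases (horizontal axis) for the 473 intergenic summits, 307 intragenic summits at such runs and 143836 intergenic runs without a summit. Runs of 200 bases or more make up 49.0% and 48.5% of the first and second sets and 5.4% of the last.

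The longest run had 975 bases. Runs of 930 bases on chromosome 16 (8084128 to 8085057, nearest gene Cldn26, 340351 bp), 927 bases on chromosome 15 (41845369 to 41846295, Abra, 144255 bp) and 899 bases on chromosome 5 (25414849 to 25415747, Actr3b, 149623 bp) followed. The run on chromosome 15 contained a perfect array of AAAGGAAGGG of 696 bp. The run near Actr3b, a gene of an actin-related protein, held an AAAGG array of 108 bp, and the 31-base words of its window occurred a median of 25216 times in the genome. Others among the longest, given with their nearest gene, had 879 bases on chromosome 12 (Nbas, 133582 bp) and 813 on chromosome 9 (Gm11114, 341682 bp). Runs of 783 bases on chromosome 17 (Gm10495, 88794 bp) and 700 on chromosome 6 (Cyp26b1, the gene of a retinoic acid hydroxylase, 150468 bp) came next. The run near Cyp26b1 tied with another of 700 bases on chromosome 7 (117437066 to 117437765), 46430 bp from the TSS of Sbf2. All of these had their purines on the reverse strand. The distances above are to the nearest TSS of a protein-coding gene. To any annotated TSS, the runs above lay 46430 bp (near Sbf2) or farther. The next in length, named after their values were seen, had 676 bases on chromosome 6 and 658 bases on chromosome 2. They lay 8671 and 2330 bp from the nearest annotated TSS. To a protein-coding TSS, the run of 676 bases lay farther than the run near Sbf2, and the run of 658 bases lay nearer.

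The repeat unit AAAGG recurred through the members. A perfect AAAGG array of at least 20 bp, that is 4 units, lay in the run of 343 of 473 members (72.5%, interval 68.3% to 76.5%), and 333 of these arrays reached 40 bp. The same array was present in 1.26% of the 143836 intergenic runs without a summit. By the longest perfect array of units of 1 to 6 bases, AAAGG led at 294 members, AAGGG at 47, AAAG at 37, AAG at 20 and AAGG at 14, and 20 members had no perfect array of 20 bp. The first members in genome order for the other 3 leading units were on chromosome 1: at 57328167 for AAGGG (100 bp), at 35753899 for AAAG (69 bp) and at 164842850 for AAG (42 bp, 13993 bp from Fmo2, a flavin monooxygenase gene). These labels understate AAAGG at some members: the runs of the AAGGG and AAAG examples also held AAAGG arrays of 94 and 64 bp. The AAAG example was unlike the other runs led by AAAG, which held no AAAGG array of 20 bp. The run of the AAG example held none either.

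Among members without an AAAGG array, the most frequent unit was a longer one built from the same letters. Units of up to 12 bases were searched after the sequences had been seen. Of 130 members whose run had no AAAGG array of 20 bp, 46 were led by AAAGGAAG (35.4%), 15 by AAGAAGG, 9 by AAGGG, 7 by AAGAAGAAGG and 6 by AAAG. With these units included, 2 of 473 members had no perfect array of 20 bp. The 130 had a longer median run than the other 343 (250.5 against 187 bases). A few members were of another kind, chosen as examples after their values were seen: 3 runs held less than 20% guanine, of which the runs at 71760075 on chromosome 10 and at 38301386 on chromosome X were almost pure adenine (2.66% and 2.7% guanine).

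Long purine runs as such rarely had a summit. The mm9 genome holds 144347 intergenic runs of at least 40 bases, of which 511 had a summit whose window covered at least 40 bases of the run, a background of 0.354%. The share increased with run length, from 0.0353% of runs of 40 to 59 bases to 0.462% at the class from 100 to under 150 and 2.96% at 200 or more. The classes in between, 60 to 79, 80 to 99 and 150 to 199 bases, gave 0.0615%, 0.144% and 1.28%. Longer runs also offer more positions for a summit, and their windows were more repeated (a median of 902.5 copies in the last class against 1 in the first). What these contributed was not tested.

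The shares of units spanned a wider range than those of lengths. Of 1372 intergenic runs led by AAAGG among units of up to 12 bases, 295 had a summit (21.5%, interval 19.4% to 23.8%). For AAAGGAAG it was 48 of 223 (21.5%, interval 16.3% to 27.5%), for AAGAAGG 15 of 47 (31.9%), for AAGAAGAAGG 8 of 24 (33.3%), for AAGGGAG 6 of 22 (27.3%) and for AAAGGGAG 4 of 29 (13.8%). AAGGG, which differs from AAAGG by 1 base, stood lower with 46 of 977 (4.71%, interval 3.47% to 6.23%), and AAAGGG had 6 of 144 (4.17%). The commonest unit of all, AG, led 47799 intergenic runs and had a summit at 1 (0.00209%). AAGG had 4 of 9836 (0.0407%), AAAG 7 of 15785 (0.0443%), AAG 7 of 6893 (0.102%), AGGG 0 of 4594 and AGAGGG 0 of 2408. A count of 0 in these last sets allows shares of up to 0.0653% and 0.125% (3 counts of the total). Units with few runs, such as AAGAAGG, have wide intervals (19.1% to 47.1%). These longer units are ones that had summits. Other related units had none, among them AAAGAAGG with 0 of 116 runs, AAGAAGGAG with 0 of 82 and AAAAGGG with 0 of 71, which allows shares of up to 2.59%, 3.66% and 4.23%.

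Array length separated the units further. Among runs led by AAAGG the share with a summit was 5.03% for arrays of 20 to 59 bp (20 of 398), 17.9% for 60 to 79 bp (76 of 425), 28.2% for 80 to 99 bp (97 of 344) and 49.8% for 100 bp or more (n = 205). For AAAGGAAG the same classes gave 4.23%, 36.8%, 45% and 82.6%, the last being 19 of 23 (interval 61.2% to 95.05%). AAGGG stayed between 5.33% and 7.5% in the 3 classes of 60 bp and more. No AG array of 60 bp or more had a summit (0 of 8500, which allows up to 0.0353%), and AAGG arrays of that length had 2 of 3109 (0.0643%). Few of these reached 100 bp: the counts there were 0 of 61 for AG and 0 of 18 for AAGG, which allows up to 4.92% and 16.7%. Counted over all runs, whatever unit led them, the share was 0.0902% without any AAAGG array and 45.1% with one of 100 to under 150 bp. The windows of these runs also became more repeated as the AAAGG array lengthened. Their median was 5 copies with arrays of 20 to 39 bp and 24760 with arrays of 100 to under 150 bp. What copy number contributed to the rise with array length was not tested.

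**Figure D3:**
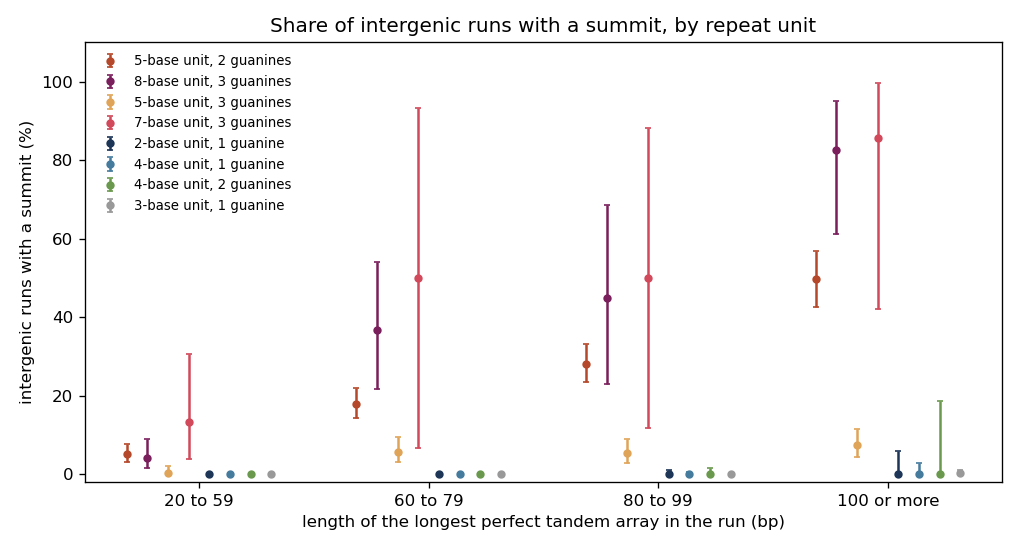
Percent of intergenic mm9 runs with a summit (vertical axis) by length of the longest perfect tandem array in the run (horizontal axis, bp), for 8 units named by their size and number of guanines; points are shares and bars are exact 95% intervals. The 5-base unit with 2 guanines is AAAGG and reaches 49.8%, and the 8-base unit with 3 guanines is AAAGGAAG and reaches 82.6%. Units of 2 to 4 bases stay at or below 0.326%. At 100 bp or more there are only 61 runs of the 2-base unit and 18 of the 4-base unit with 2 guanines.

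Short words gave a like picture without regard to arrays. Each word was the first 10 bases of a repeated unit, for the 4 leading units of the members and the 3 leading units of all intergenic runs. The words were sought on both strands of the windows, and they can overlap one another. AAAGGAAAGG lay in 354 of 473 member windows (74.8%) against 3.5% of the windows centred on all 144347 intergenic runs. AAAGGAAGAA was in 16.5% against 5.17%, AAGGGAAGGG in 16.3% against 2.81% and AAGAAGGAAG in 10.1% against 6.81%. At least 1 of these 4 words was present in 453 member windows (95.8%, interval 93.5% to 97.4%) and in 16.1% of the run windows. They come from the members' own units, so their frequency there is a description. Of the words of the commonest genomic units, AGAGAGAGAG was in 4.44% against 47.6% and AAAGAAAGAA in 16.9% against 22.3%. AAGGAAGGAA, in which the GGAA core recurs every 4 bases, was in 15.9% of member windows and in 20.2% of the intragenic windows. Its interval at members, 12.7% to 19.5%, includes the 18.8% of the run windows. Each of the 4 words from the members' units also contains GGAA, so this 1 word does not stand for the core. The most frequent 12-base word of the paired summits, present in 583 of those 588, was in 0 of the 473 members and in 270 of the 432 unpaired intergenic summits without a run.

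Many summits lay beside the longest perfect AAAGG array and not in it. At 343 members such an array of at least 40 bp lay within 400 bp. The summit was inside the array at 90 and outside it at 253, at a median gap of 33 bp. Only the longest perfect array was used, so a summit outside it can still lie in interrupted repeat of the same unit. The side was uneven. On the forward strand of the genome, 198 summits lay to the right of the array, at higher coordinates, and 55 to the left, and the median offset of the summit from the array's centre was 58.5 bp to the right. Where the purines were on the forward strand, 127 of 168 summits were to the right, 30 inside and 11 to the left, with a median offset of 69.25 bp. Where they were on the reverse strand, 71 of 175 were to the right, 60 inside and 44 to the left, with a median offset of 37.5 bp. The displacement to the right was thus present with purines on either strand and larger with purines on the forward one.

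**Figure D4:**
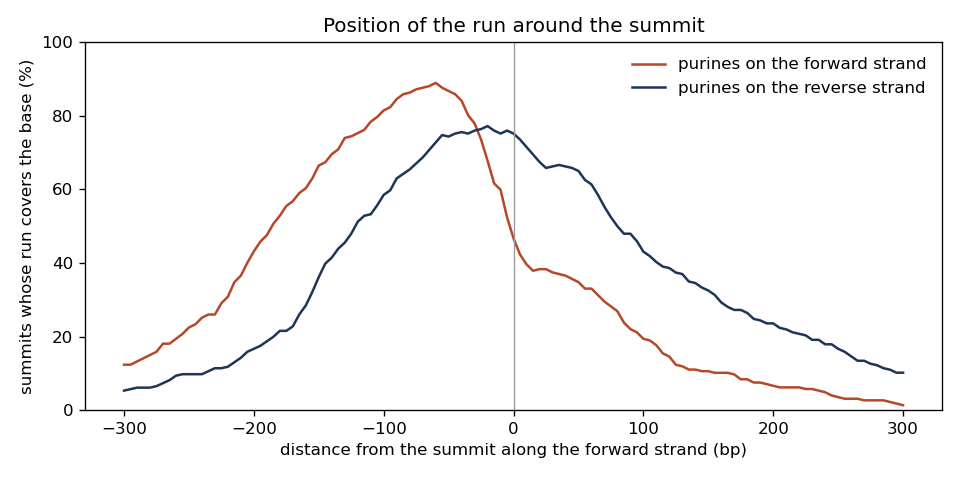
Percent of members whose full run covers a base (vertical axis) by distance from the summit along the forward strand of mm9 (horizontal axis, bp), for 227 members with purines on the forward strand and 246 with purines on the reverse strand. At the summit itself the run covers 46.7% of the first and 75.2% of the second, and 50 bp to the left 86.8% and 74.4%.

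Among summits outside the whole run, an excess on the right was seen with purines on the forward strand and not with purines on the reverse strand. The summit lay inside the run at 291 of 473 members (61.5%), past the 3′ end of the purine strand at 146 (30.9%) and before its 5′ end at 36 (7.61%). With purines on the forward strand 113 of 227 summits were to the right of the run and 8 to the left. With purines on the reverse strand 28 of 246 were to the right and 33 to the left, and 185 were inside. The median distance between summit and run centre was 73.5 bp (quartiles 37 and 116). It was 103 bp in the 237 members with a unique window. Uniqueness was judged on the window around the summit, so by construction it favours summits farther from a repeated run.

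The windows ranged from unique to very common sequence. The copy number of a window was taken as the median number of times that its 31-base words occur in the genome, and 237 members (50.1%, interval 45.5% to 54.7%) had a median of 1, called unique, while 106 were above 100. Members with an AAAGG array of 20 bp were unique at 56.9% (195 of 343) and those without at 32.3% (42 of 130). With 50-base words 70.4% of all members were unique. AAAGG also led runs with a summit in windows called unique. Among intergenic runs led by AAAGG whose own centred window was unique, 43 of 479 had a summit (8.98%). In repeated windows 262 of 943 did (27.8%), and there the median run was 166 and not 89 bases. The label unique rests on the median word, so such a window can still hold an array whose own words are repeated. With AAAGG arrays of 80 bp or more, 17 of 88 runs in unique windows had a summit (19.3%, interval 11.7% to 29.1%). In repeated windows 185 of 465 such runs did (39.8%, interval 35.3% to 44.4%), again with a longer median run (189 against 104.5 bases). For all other units the shares in unique and repeated windows were 0.0388% and 0.356%. The sources used here do not give how reads with several placements were treated, and the part of copy number in these shares was not tested.

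Members were found on all 21 chromosomes of the list, at unequal density. Chromosomes 17 and 1 held 29 and 60 members, or 30.4 per 100 Mb on each, and chromosome X held 13, or 7.8 per 100 Mb, against 17.8 over the genome. The number of repeats was closer: X had 109 intergenic runs with an AAAGG array of at least 40 bp and chromosome 1 had 126. Of these, 7 had a summit on X (6.42%, interval 2.62% to 12.8%) and 45 on chromosome 1 (35.7%, interval 27.4% to 44.7%), with 339 of 1511 over the autosomes (22.4%). Arrays were somewhat shorter on X, with a median of 65 bp against 73 bp on the autosomes, and the share was also lower among arrays of 80 bp or more, at 4 of 30 on X (13.3%) and 214 of 586 on the autosomes (36.5%). The difference was not tested. The median distance from a member to the nearest other member was 1737570 bp, and 10 members had another within 10 kb.

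**Figure D5:**
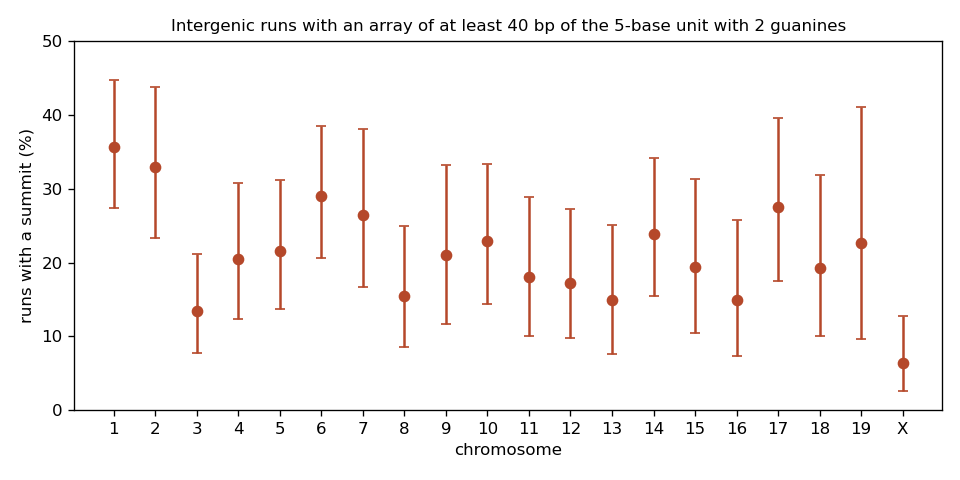
Percent of intergenic runs with an AAAGG array of at least 40 bp that had a summit (vertical axis) on each chromosome with at least 20 such runs (horizontal axis); points are shares and bars are exact 95% intervals. Chromosome 1 is highest at 35.7% and chromosome X lowest at 6.42%.

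The members lay about as far from genes as intergenic purine runs in general. Their median distance to the nearest TSS was 46287 bp (quartiles 15260 and 128518), against 41913 bp for all intergenic runs and 44880 bp for the 432 unpaired intergenic summits without a run. Within 10 kb of a TSS were 15.9% of members and 18.96% of the runs, and within 100 kb 68.7% and 71.6%. The purine strand was the strand of the nearest protein-coding gene at 239 of 473 members. The members nearest to a protein-coding TSS were 1076 bp upstream of Npm2, a nucleoplasmin gene active in oocytes (chromosome 14, summit 71053967), 1289 bp upstream of Sva (chromosome 6, 41987104), 1505 bp upstream of Plekhm2, a gene of lysosome positioning (chromosome 4, 141222319), 1535 bp upstream of B3gat3, a glucuronosyltransferase gene (chromosome 19, 8993329) and 1664 bp upstream of Zfp773, a zinc finger gene (chromosome 7, 7091130). Arrays of AAAGG lay near Npm2 (82 bp) and Plekhm2 (73 bp), arrays of AAAGGAAG near Sva (79 bp) and B3gat3 (87 bp), and an AAAG array near Zfp773 (71 bp).

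Few genes of blood or of the ribosome had a member nearby. Of 22225 protein-coding genes, 687 had a member within 100 kb of a TSS, a background of 3.09%. Of 83 genes of cytosolic ribosomal proteins and their close paralogues, 1 had a member within that distance (1.2%, interval 0.0305% to 6.53%): Rpl3, a large-subunit protein gene, at 37006 bp. Of 28 genes of stem and progenitor receptors and signalling 1 had one (3.57%): Thy1, a surface glycoprotein gene, at 92974 bp. None of 43 hematopoietic transcription factor genes, 27 B lineage genes or 30 p53 pathway genes had one, and these counts allow shares of up to 6.98%, 11.1% and 10.0%. In lists of this size these counts do not separate the lists from other genes.

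Summits at long runs inside gene bodies had values close to these. The 307 unpaired intragenic summits at runs of at least 40 bases had a median run of 196 bases against 198 (intervals of the medians 184 to 212 and 187 to 210), and 41.2% guanine against 41.4%. A perfect AAAGG array of 20 bp was in 70.4% of their runs (interval 64.9% to 75.4%) against 72.5%, AAAGGAAG led 8.47% against 9.94%, and 49.2% against 50.1% of the windows were unique. Of their summits near AAAGG arrays, 100 were to the right and 45 to the left. With purines on the forward strand 64 were to the right and 11 to the left, while with purines on the reverse strand the sides were near even, with 36 and 34. These differences were not tested, and overlapping intervals do not show that the sets are alike.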

How the data were processed

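MYSM1-FLAG, input, H2AK119ub and H3K27ac chromatin was sequenced from Ba/F3 and HPC7 cells, 1 library each. The submitters' processing notes name Bowtie 1.0.0, MACS 1.4.1 and mm9, while the sources used here give no threshold, control or pooling of lines. The authors deposited 1 list of summits with chromosome, start, end and name and no other measured value, so no count, signal or score was tested. Only this list was used, and the other libraries were not analysed here.

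Positions were read as 1-based on NCBIM37, the same build as mm9, with GENCODE M1 genes (Python 3.11.15, numpy 2.4.6, scipy 1.17.1). A run's length was followed beyond the window. All run and array lengths are those of the mm9 reference, and lengths in the genomes of the lines were not measured. Arrays are perfect and at least 20 bp, and their units are written from the alphabetically first rotation on the purine strand. A genomic run is intergenic by its centre and has a summit when the window of 100 bp to each side of a summit covers 40 of its bases; the rule as first written, any base within 100 bp, is given as an alternative. Copy number counts 31-base words on both strands. Run, array and copy number functions were tested on simulated sequence first. List genes were matched by symbol, with older symbols from RefSeq.

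The members, lists and named sites were chosen with earlier results of these data known. Sites named are the 8 longest runs (ties in genome order), the first of each of the 4 leading units, 3 on each side of the limit of 40 bases, and the 5 nearest a protein-coding TSS; genes are those at these sites or in the 5 lists. The sequence and position of 3 of these sites are not reported here. Alternatives were the run minimum, window, TSS distance, gene set, pair rule, joining of close summits, autosomes, coordinate base and word length.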

Additional observations from a re-analysis of the deposited data

How the results depend on the processing

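Of 83 values computed under other settings, 68 stayed within 1.5 times the count of members or within the interval of the share or median. The count of 473 stayed within 1.5 times in each of its alternatives, a wide limit. It was lowest with a window of 50 bp each side (339) and highest with one of 200 bp (505). The share of intergenic runs with a summit (0.354%) was 0.266% with a minimum of 30 bases and 0.437% with 50, and 0.238% and 0.439% with windows of 50 and 200 bp. It was 0.4004% (578 runs) when a summit within 100 bp of any base counted, an alternative computed after the data were seen. With the 50 bp window the share of members with an AAAGG array was 67.6%, the share of unique windows 31.9% and the median distance to the run's centre 51 bp, and with 200 bp that distance was 84.5 bp. A narrow window by construction takes summits nearer the run. The median distance to a TSS was 52640 bp with a 5 kb limit and 84062 bp with protein-coding genes alone, both by construction. Unique windows were 70.4% with 50-base words. In members with a unique window alone, also chosen after the data were seen, the AAAGG share was 82.3%, the median run 170 bases and the distance to its centre 103 bp. Uniqueness was judged on the window around the summit, which by construction favours summits farther from a repeated run. The cause of the other shifts was not tested. The pair rule could not change the share of genomic runs, which counts every summit, and was not run for it. No paired analysis was possible because the list names no sample and each group has 1 library. The number of libraries and the unknown depth limit every value, and a run without a summit is not shown to lack the protein.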
